A study of Mus musculus with 4 samples.

Results

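The glutamatergic neurons described here are 288 barcodes of 14147 in single-cell RNA libraries of the mouse hippocampus, each barcode standing for 1 captured cell or cell fragment. They were chosen by their own transcripts. A barcode with at least 650 detected genes was taken when it held at least 4 *Slc17a7* unique molecular identifiers (UMIs, each counting 1 captured transcript) per 10000. It also had to hold, per 10000, under 4 of *Gad1* and *Gad2*, under 20 of *Igfbpl1*, *Dcx* and *Sox11*, under 40 of *Cldn5*, *Flt1* and *Ly6c1*, under 12 of *Mog*, *Mag* and *Ermn*, and under 60 of *Acta2*, *Tagln* and *Myh11*. They are called *Slc17a7*+ barcodes below. The animals were C57BL/6 mice, given as 12 weeks old in the labels and as a younger range in the study's methods, and no transgene or induced mutation is named. The 2VO group had both common carotid arteries closed for a limited time, and in the sham group the arteries were clamped and released at once. Each library came from 1 mouse, and sham 1, sham 2 and 2VO 1 were compared, while 2VO 2 was not analysed here. Whole hippocampus was dissociated, so that the barcodes hold neurons, or parts of neurons, that came through the dissociation.

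*Slc17a7* encodes VGLUT1, the transporter that loads glutamate into synaptic vesicles of most hippocampal excitatory neurons. These neurons fall into granule cells of the dentate gyrus, which keep the transcription factor *Prox1*, and pyramidal cells of the CA fields, of which CA1 cells are marked by *Spink8*. Pyramidal cells of CA1 are known for their sensitivity to a loss of blood flow. *Nrgn* encodes neurogranin, a calmodulin-binding protein of excitatory dendrites.

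The number of *Slc17a7*+ barcodes differed more between the sham mice than between sham 1 and 2VO 1. There were 42 of 5109 kept barcodes in sham 1 (0.822%, exact 95% interval 0.593 to 1.11), 205 of 5126 in sham 2 (4.0%, 3.48 to 4.57) and 41 of 3912 in 2VO 1 (1.05%, 0.753 to 1.42). The intervals cover counting error only, and the rule set these shares, so no test was made. Together the barcodes summed to 350346, 1284988 and 175465 UMIs in sham 1, sham 2 and 2VO 1, with medians of 3771.5, 2746 and 2138 per barcode. Whole libraries held 65287386, 40459614 and 18754480 UMIs, and 0 barcode sequences were shared between the libraries among the members. In a barcode under 2500 UMIs a single *Slc17a7* UMI meets the minimum, and 6, 32 and 20 members rested on 1 such UMI. The members closest to the minimum held 4.14, 4.09 and 4.10 *Slc17a7* UMIs per 10000, and the closest barcodes outside it held 3.94, 3.91 and 3.82.

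Most sham barcodes carried the transcripts of excitatory neurons, but many of the 2VO barcodes did not. The sum of 29 neuronal genes, *Slc17a7* left out, had a median of 258 UMIs per 10000 in sham 1, 180 in sham 2 and 144 in 2VO 1. Fewer than 50 such UMIs per 10000 were found in 1 of 42 members of sham 1, 13 of 205 of sham 2 and 19 of 41 of 2VO 1. Of those 19, 16 rested on 1 *Slc17a7* UMI, 5 held 0 UMIs of the 29 genes, and 1 held *Nrgn*. They carried between 161 and 1969 UMIs per 10000 of 71 genes that mark other brain cells. By list, the sums over these 19 were 256 UMIs per 10000 of choroid plexus genes, 159 of microglial genes, 54.9 of oligodendrocyte genes and 41.3 of astrocyte genes. The markers thus go against the neuronal label for these barcodes. Results are therefore given for all 288, and again for the 255 with at least 50 neuronal UMIs per 10000, called neuronal barcodes. These numbered 41, 192 and 22, or 0.803%, 3.75% and 0.562% of kept barcodes. Where stated, they are given for the 230 that also held under 100 other-cell UMIs per 10000, called clean neuronal barcodes (37, 179 and 14). Both subsets were chosen after the data had been seen. Apart from genes of the rule, the tests in them kept the genes that define them. Results for such genes there are not independent of the choice.

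**Figure D1:**
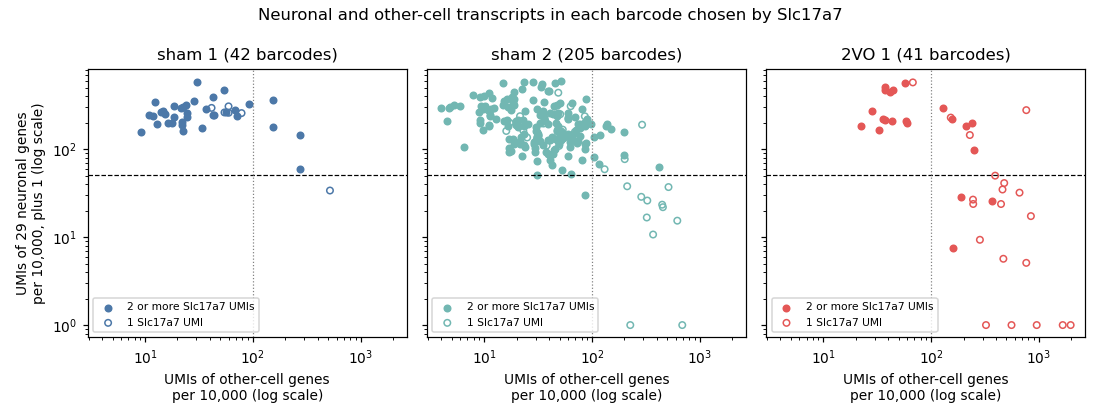
Each point is 1 *Slc17a7*+ barcode, with the UMIs of 71 other-cell genes per 10000 on the x axis and the UMIs of 29 neuronal genes per 10000, plus 1, on the y axis, both on log scales. Filled points hold 2 or more *Slc17a7* UMIs and open points 1, the dashed line marks 50 neuronal UMIs and the dotted line 100 other-cell UMIs. In 2VO 1, 19 of 41 points lie under the dashed line and 27 lie right of the dotted line, against 5 of 42 right of it in sham 1 and 24 of 205 in sham 2.

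The share of barcodes with *Nrgn* differed across the same split. *Nrgn* is a glutamatergic marker and the split was made by a sum of such genes, so its shares are not independent of the split. *Nrgn* was found in 97.6% of neuronal barcodes of sham 1, 85.9% of sham 2 and 86.4% of 2VO 1. At a matched depth of 1000 UMIs per barcode, as the share expected over random draws, the values were 86.8%, 67.6% and 70.1% in neuronal barcodes and 84.7%, 64.1% and 38.8% in all members. In barcodes with oligodendrocyte genes, which should lack *Nrgn*, they were 0.565%, 1.44% and 1.34%. *Slc17a6*, the other main vesicular glutamate transporter of the brain, had 4, 23 and 5 UMIs in all members. *Reln*, which marks Cajal-Retzius cells, had 3 UMIs in 1 member of sham 1, 19 in 6 members of sham 2 and 0 in 2VO 1.

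The neuronal barcodes of the sham mice ranged between 2 kinds, with a gap between them in sham 1 but not in sham 2. One kind held the long noncoding RNAs that stay in the nucleus, and the other held neuronal transcripts with hardly any of them. The sum of 8 such RNAs, *Malat1*, *Meg3*, *Neat1*, *Kcnq1ot1*, *Miat*, *Mirg*, *Pantr1* and *Snhg11*, was under 100 UMIs per 10000 in 19 of 41 neuronal barcodes of sham 1 (46.3%, exact 95% interval 30.7 to 62.6). It was under 100 in 110 of 192 in sham 2 (57.3%, 50.0 to 64.4) and in 4 of 22 in 2VO 1 (18.2%, 5.19 to 40.3). In sham 1 no neuronal barcode lay between 50 and 100 and 1 lay between 100 and 200, while in sham 2 18 and 14 did. *Meg3* and *Snhg11* also belong to the 29 neuronal genes.

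The lncRNA-poor barcodes had met the same minimum of neuronal genes, so that their neuronal levels are a description. Their medians of the 29 neuronal genes were 264 UMIs per 10000 in sham 1, 138 in sham 2 and 220 in 2VO 1, against 245, 261 and 221 in the lncRNA-rich barcodes. *Syt1*, the calcium sensor of vesicle release, was found in 89.5%, 93.6% and 100% of them. *Malat1* made up 6.53, 15.4 and 35.9 of their summed UMIs per 10000, against 531, 430 and 623 in the lncRNA-rich barcodes. They were also shallower, with medians of 1969, 2517.5 and 1463.5 UMIs against 11588.5, 4579.5 and 6669.5. The lncRNA-poor barcodes of sham 2 were rich in ribosomal-RNA-associated transcripts and *Lars2*, with a median of 3571 UMIs per 10000 against 162 in sham 1 and 424 in 2VO 1. Since 2VO 1 held a lower share of them, the summed counts of the libraries weigh the kinds differently. The comparison of 2VO with sham was therefore repeated in the 122 lncRNA-rich neuronal barcodes (22, 82 and 18), a subset also chosen after the data had been seen.

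**Figure D2:**
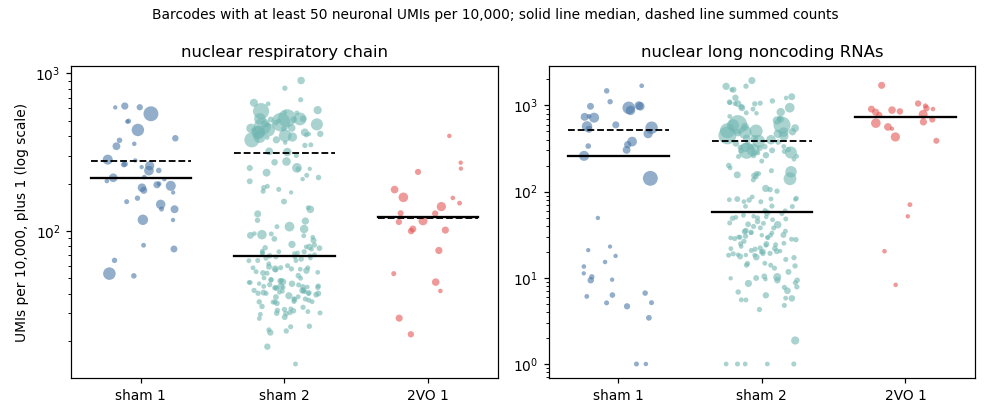
Each point is 1 neuronal barcode, with its area rising with its UMI total, and the y axes give UMIs per 10000, plus 1, on a log scale for 61 nuclear-encoded respiratory chain genes (left) and 8 nuclear long noncoding RNAs (right). Solid lines are medians over barcodes and dashed lines the summed counts. On the right, the medians of sham 1, sham 2 and 2VO 1 are 259, 57.3 and 729, and most 2VO points lie in the upper cloud. On the left, the dashed lines order 2VO 1 below both sham libraries, and the solid lines do not.

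Granule cells and pyramidal cells were both present in every library, in different proportions. By the larger of the summed granule and pyramidal lists, neuronal barcodes divided into 11 granule-side and 29 pyramidal-side in sham 1, 38 and 136 in sham 2, and 9 and 12 in 2VO 1. The division was close for many members, since the lists differed by 1 UMI or less in 5, 41 and 16 of all members. *Prox1* was found in 22.0% of neuronal barcodes of sham 1, 5.73% of sham 2 and 31.8% of 2VO 1. *C1ql2*, a secreted C1q-like protein of mossy fibres, followed the same order with 26.8%, 5.73% and 31.8%. *Dsp*, which encodes desmoplakin and marks granule cells, was found in 14.6%, 2.60% and 22.7%. The share with each of these 3 granule genes was thus lowest in sham 2, while *C1ql3* was found in 56.1%, 64.1% and 59.1%. In the granule-side neuronal barcodes alone, *C1ql2* was found in 100%, 26.3% and 66.7%, and *Prox1* in 81.8%, 26.3% and 77.8%. Both genes belong to the list that assigns a barcode to this side, so these shares are not independent of it. The expected shares with *Prox1* at 1000 UMIs per barcode were 8.48%, 2.04% and 13.6% in neuronal barcodes. They were 15.2%, 14.2% and 15.7% in barcodes with oligodendrocyte genes, so *Prox1* alone does not mark a granule cell here. The part of oligodendrocyte transcripts in the *Prox1* shares was not tested.

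Several CA1 genes had their lowest share in the 2VO library, a difference between single libraries that was not tested. *Wfs1*, which encodes wolframin of the endoplasmic reticulum, was found in 26.8%, 34.4% and 9.09% of neuronal barcodes. The values for *Fibcd1* were 34.1%, 37.0% and 22.7%, and for *Pou3f1*, a POU transcription factor, 26.8%, 33.3% and 22.7%. *Spink8* lay close together at 22.0%, 19.8% and 18.2%. *Bok*, a BCL2 family member and CA3 marker, was found in 19.5%, 12.0% and 4.55%, the last being 1 barcode. *Pcp4*, a calmodulin regulator that marks CA2 pyramidal cells and is also present in granule cells, was found in 41.5%, 22.9% and 40.9%. In 2VO 1, 37 of 38 *Pcp4* UMIs of neuronal barcodes lay on the granule side, while in sham 1 353 of 479 lay on the pyramidal side. Of those 479, 332 lay in 1 barcode. *Pcp4* is also among the genes that assign a barcode to the pyramidal side, so this division is not independent of it. *Drd2*, a mossy cell marker, had 0 UMIs in all 3 libraries.

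**Figure D3:**
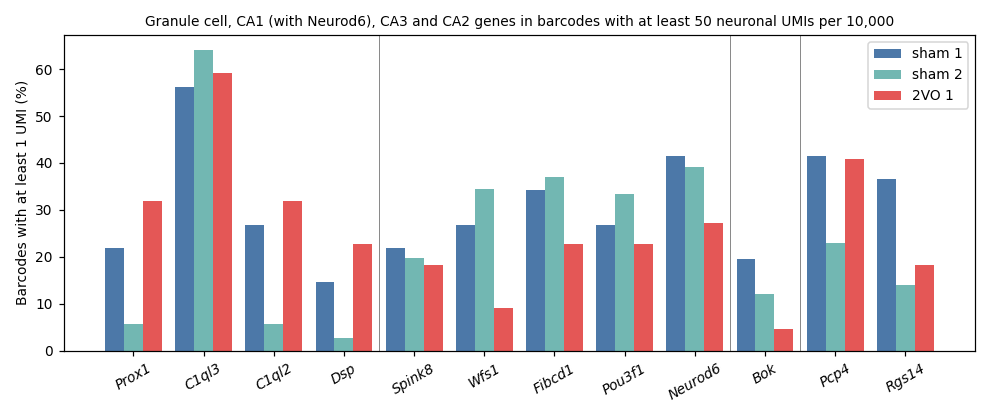
Bars give the percentage of neuronal barcodes with at least 1 UMI of a subfield gene in sham 1, sham 2 and 2VO 1 (41, 192 and 22 barcodes), with no error bars because each bar is 1 library. Vertical lines separate granule cell genes, CA1 genes with *Neurod6*, the CA3 gene *Bok* and the CA2 genes *Pcp4* and *Rgs14*. *Prox1*, *C1ql2* and *Dsp* are lowest in sham 2, and *Wfs1*, *Fibcd1*, *Pou3f1*, *Neurod6* and *Bok* are lowest in 2VO 1.

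In summed counts, the 2VO barcodes held more of the inducible heat shock genes *Hspa1a*, *Hspa1b* and *Hspb1* and of the immediate early gene *Jun* than both sham libraries. They held less of *Cck*, of the stathmins *Stmn2* and *Stmn3* and of several respiratory chain genes. Genes of microglia, oligodendrocytes and endothelium were also higher, and in neuronal 2VO barcodes at least 79.3% of the UMIs of each of these lists lay in 5 of 22. Microglial UMIs were as concentrated in the sham libraries, with 100% and 82.2% in 5 neuronal barcodes, and those of oligodendrocytes and endothelium less so. The comparison asks which genes of these neurons differ after 2VO. Counts were summed per library, values are normalised counts per 1000000 (CPM) with TMM factors, and tests are edgeR's quasi-likelihood test with Benjamini-Hochberg adjustment over all genes tested. Calls needed a fold above 1.5 and an adjusted p below 0.05.

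Of 7674 genes tested in all *Slc17a7*+ barcodes, 265 rose (3.45%) and 165 fell (2.15%). The DESeq2 Wald test on the same counts called 26 and 4, so that many calls depend on the test. In neuronal barcodes 147 of 7409 rose (1.98%) and 170 fell (2.29%), and in clean neuronal barcodes 89 of 7518 rose (1.18%) and 247 fell (3.29%). In lncRNA-rich neuronal barcodes 23 of 7153 rose (0.322%) and 4 fell (0.0559%), each of them also called in the same direction in all members, and 1165 had an unadjusted p under 0.05. There the prior degrees of freedom of the fit were 13.98, against an infinite prior in all members. Of the 265 genes that rose in all members, 131 (49.4%) also rose in neuronal barcodes, and of the 165 that fell, 117 (70.9%) also fell there. With 1 2VO library, the test assumes that it would vary like the 2 sham libraries. Exact permutation of 3 libraries cannot give a p under 0.05.

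Inducible heat shock genes were among those that rose. *Hspa1a* and *Hspa1b* encode nearly identical stress-inducible HSP70 chaperones that refold damaged proteins, and reads may have been split between them in counting. *Hspb1* encodes the small heat shock protein HSP27. The sequence of 250 bases before the start of *Hspa1a* (chr17:34972157-34972406), *Hspb1* (chr5:135887669-135887918) and *Jun* (chr4:95052223-95052472) is shown because these genes rose together, and because heat shock factor is known to act through repeats of GAA and TTC. *Hspa1a* and *Jun* lie on the reverse strand and *Hspb1* on the forward strand of GRCm38.p6, the sequences are from RefSeq, and capitals mark GAANNTTC, which reads the same on both strands.
Hspa1a: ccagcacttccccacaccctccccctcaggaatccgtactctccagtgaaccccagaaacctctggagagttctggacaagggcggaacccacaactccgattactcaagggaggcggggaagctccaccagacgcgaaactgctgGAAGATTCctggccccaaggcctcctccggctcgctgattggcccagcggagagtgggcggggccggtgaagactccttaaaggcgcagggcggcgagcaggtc
Hspb1: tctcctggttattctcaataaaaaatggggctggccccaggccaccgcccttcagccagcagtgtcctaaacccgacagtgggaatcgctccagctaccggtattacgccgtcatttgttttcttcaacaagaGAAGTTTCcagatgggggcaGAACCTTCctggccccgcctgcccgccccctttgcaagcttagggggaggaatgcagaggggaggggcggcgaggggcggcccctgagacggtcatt
Jun: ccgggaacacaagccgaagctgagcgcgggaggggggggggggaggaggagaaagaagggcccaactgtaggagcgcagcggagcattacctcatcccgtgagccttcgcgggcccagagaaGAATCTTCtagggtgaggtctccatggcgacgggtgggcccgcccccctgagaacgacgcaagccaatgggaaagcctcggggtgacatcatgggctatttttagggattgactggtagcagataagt
The element starts 104 bases before the start in *Hspa1a*, 117 and 97 bases before it in *Hspb1*, and 128 bases before it in *Jun*. *Hspa1b* (chr17:34959239-34959488) has it at the same place as *Hspa1a*, with 98.8% of bases the same. *Fos* and *Slc17a7* have 0 in the same window. Of 32851 RefSeq promoters, 2199 (6.69%) hold it and 75 (0.228%) hold it 2 or more times. A match describes these letters only.

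*Hspa1b* (chr17:34956436-34959238) stood at 19.6 in sham 1, 10.4 in sham 2 and 444 in 2VO 1 CPM. Both sham values were low and the 2VO value lay above them (log2 fold change 5.04, SE 0.46, adjusted p = 2.15e-24). Sham 1 held 7 of its UMIs in 7 members, sham 2 held 11 in 9, and 2VO 1 held 79 in 24. In neuronal barcodes it stood at 20, 10.9 and 231 CPM (log2 fold change 4.05, adjusted p = 1.19e-11), and the 34 UMIs of 2VO 1 lay in 10 barcodes, with 85.3% of them in 5. The other 45 of its 79 UMIs in 2VO 1 were in the 19 barcodes with few neuronal genes. *Hspa1a* (chr17:34969190-34972156) stood at 25.1 in sham 1, 11.4 in sham 2 and 422 in 2VO 1 CPM (log2 fold change 4.73, SE 0.46, adjusted p = 5.64e-22), and at 25.7, 10.9 and 190.1 in neuronal barcodes (log2 fold change 3.59, adjusted p = 3.46e-08).

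*Hspb1* (chr5:135887919-135889563) stood at 16.8 in sham 1, 15.2 in sham 2 and 281 in 2VO 1 CPM (log2 fold change 4.14, SE 0.47, adjusted p = 1.75e-15). Its rise was no smaller in neuronal barcodes (17.2, 5.94 and 258 CPM; log2 fold change 4.76, adjusted p = 2.81e-15) or in clean ones (6.02, 5.21 and 254 CPM; log2 fold change 5.47, adjusted p = 2.47e-12). Of its 50 UMIs in 2VO 1, 19 lay in 1 member, and neuronal barcodes held 38 UMIs in 9 members. In lncRNA-rich neuronal barcodes the 3 genes also rose, *Hspa1b* with a log2 fold change of 3.99 (adjusted p = 0.00142), *Hspa1a* with 3.76 (adjusted p = 0.0118) and *Hspb1* with 4.47 (adjusted p = 0.00142). With every neuronal barcode given the same weight, mean *Hspb1* was 0.461, 0.0592 and 3.29 UMIs per 10000, and 2VO 1 stayed above both sham libraries for all 3 genes. DESeq2 called them in all members, with adjusted p of 6e-07, 6.01e-06 and 0.00105 for *Hspa1b*, *Hspa1a* and *Hspb1*, and gave no adjusted p for them in neuronal barcodes.

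Few other chaperones were called. Of 20 tested heat shock and chaperone genes, *Hspa1a*, *Hspa1b*, *Hspb1* and the lens and glial chaperone *Cryab* rose, 0 fell, and the list median was −0.24 on the log2 scale against 0.003 for all genes. In neuronal barcodes the same 4 rose and the median was −0.43. In clean ones *Dnaja1*, *Dnaja2* and the mitochondrial *Hspe1* fell and the median was −0.69. These medians come from summed counts and depend on how barcodes are weighed. In neuronal barcodes 7 of 20 genes lay above both sham libraries and 8 below by sums, but 11 and 2 by means over barcodes. In clean ones the counts were 7 and 11 by sums and 7 and 9 by means. Over all genes tested in neuronal barcodes, 42.3% lay above both and 41.2% below in summed CPM. *Cryab* also belongs to the oligodendrocyte list. Scaled together with all other kept barcodes of the same libraries, *Hspa1b* stood at 16.1, 9.34 and 337 CPM in *Slc17a7*+ barcodes and at 495, 176 and 826 in the others. The others thus held more of it in every library, and their own difference was not called (log2 fold change 1.33, adjusted p = 0.48). The fit to the others had prior degrees of freedom of 3.19, against an infinite prior in all members. At 1000 UMIs per barcode the expected shares with *Hspa1a* were 1.34%, 1.07% and 12.6% in neuronal barcodes and 26.9%, 7.10% and 38.5% in barcodes with oligodendrocyte genes. For *Hspb1* they were 4.03%, 0.592% and 14.7% against 1.92%, 2.63% and 15.6%. In 2VO 1 neither share was higher in neuronal barcodes than in oligodendrocyte ones, and the part of free RNA in these genes was not tested.

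Several immediate early genes, which neurons and glia switch on within minutes of activity or injury, rose in the summed counts of all members and less clearly in those of neuronal ones. The study took the hippocampi days after surgery and digested them with a warm protease. The part of that digestion in these genes and in the heat shock genes was not tested. *Jun* (chr4:95049034-95052222), part of the AP-1 transcription factor, stood at 123 in sham 1, 97.8 in sham 2 and 719.8 in 2VO 1 CPM (log2 fold change 2.73, SE 0.39, adjusted p = 4.15e-10). It also rose in neuronal barcodes (126, 99 and 428 CPM; log2 fold change 1.95, adjusted p = 0.000156) and in clean ones (133, 92.7 and 433 CPM; log2 fold change 1.98, adjusted p = 0.00106). In lncRNA-rich ones its log2 fold change was 1.79 with an adjusted p of 0.0585. The 63 *Jun* UMIs of neuronal 2VO barcodes were spread over 17 of 22. *Fos*, the partner of JUN in AP-1, stood at 11.2, 50.3 and 388 CPM (log2 fold change 3.41, adjusted p = 9.72e-14). Of its 53 UMIs in sham 2, 33 lay in 1 member, and DESeq2 did not call it (adjusted p = 0.651). In neuronal barcodes *Fos* rose with a log2 fold change of 2.43 (adjusted p = 0.000133), and in clean ones the value was 1.65 (adjusted p = 0.101). At 1000 UMIs per barcode the expected shares with *Jun* were 11.3%, 7.14% and 37.2% in neuronal barcodes, against 36.4%, 39.99% and 51.1% in barcodes with oligodendrocyte genes. Those with *Fos* were 1.25%, 3.99% and 20.8% against 23.9%, 48.3% and 64.5%. In each library both shares were lower in neuronal than in oligodendrocyte barcodes, a difference that was not tested.

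Of 18 tested immediate early genes, *Atf3*, *Btg2*, *Dusp1*, *Fos*, *Fosb*, *Ier2*, *Jun* and *Klf2* rose in all members, *Arc* fell, and the median was 1.23. In neuronal barcodes *Fos*, *Jun* and *Klf2* rose of 17 tested, with a median of 0.56, and in clean ones *Jun* alone of 15, with a median of 0.03. In lncRNA-rich ones edgeR called 0 of 16, with 6 at an unadjusted p under 0.05 and a median of 0.20, and in all members DESeq2 called *Fosb* and *Jun*. *Arc*, which encodes a protein of active dendrites, went the other way from *Fos* and *Jun*. It stood at 86.6 in sham 1, 53.2 in sham 2 and 5.62 in 2VO 1 CPM (log2 fold change −3.51, adjusted p = 0.0145) and rested on 1 UMI in 2VO 1. Its 2VO count in clean neuronal barcodes was 0.

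Among the genes that fell were *Cck* and the stathmins *Stmn2* and *Stmn3*. *Cck* (chr9:121489824-121495694), the neuropeptide cholecystokinin, stood at 1199 in sham 1, 1861 in sham 2 and 304 in 2VO 1 CPM, with the 2VO value under both sham values (log2 fold change −2.34, SE 0.59, adjusted p = 0.00355). Sham 1 held 429 of its UMIs in 34 members, sham 2 held 1960 in 119, and 2VO 1 held 54 in 11. It fell likewise in neuronal barcodes (1227, 1940.0 and 353 CPM; log2 fold change −2.17, adjusted p = 0.014) and in clean ones (log2 fold change −2.69, adjusted p = 0.00572), and DESeq2 called it in both of the sets it was run on (adjusted p = 0.00329 in all members and 0.00518 in neuronal barcodes). In lncRNA-rich ones the log2 fold change was the same size at −2.34, with an adjusted p of 0.124. These subsets were chosen by a sum of neuronal genes. *Cck* is a marker of such neurons, so its values there are not independent of the choice. *Cck* was found in 82.9% of neuronal barcodes of sham 1, 61.5% of sham 2 and 40.9% of 2VO 1. At 1000 UMIs per barcode the expected shares were 61.1%, 40.2% and 19.2%, so that 2VO 1 lay under both sham libraries, against 0.0696%, 0.328% and 0.481% in barcodes with oligodendrocyte genes.

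Stathmins bind tubulin and regulate microtubules in growing and mature axons. *Stmn2* stood at 531 in sham 1, 995 in sham 2 and 169 in 2VO 1 CPM (log2 fold change −2.19, SE 0.52, adjusted p = 0.00184), and its 30 UMIs in 2VO 1 lay in 11 members. In sham 1, 89 of its 190 UMIs lay in 1 member, and in sham 2, 158 of 1048 did. *Stmn3* stood at 1089.7, 1539 and 264 CPM (log2 fold change −2.32, adjusted p = 0.00279). *Gap43*, a growth cone protein, stood at 251, 257 and 78.7 CPM (log2 fold change −1.69, adjusted p = 0.0194). Of 22 tested axon and cytoskeleton genes 5 fell and 1 rose in all members, 2 fell in neuronal barcodes and 5 in clean ones, with medians of −0.85, −0.77 and −0.82. In lncRNA-rich ones 0 were called by edgeR, with 8 at an unadjusted p under 0.05 and a median of −0.85.

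Several other genes with small p fell in all members. *Mllt11* stood at 346 in sham 1, 384 in sham 2 and 50.6 in 2VO 1 CPM (log2 fold change −2.85, SE 0.56, adjusted p = 3.83e-05), and it fell in clean neuronal barcodes (log2 fold change −3.20, adjusted p = 0.00106) and in lncRNA-rich ones too (352, 459.9 and 43.5 CPM; log2 fold change −3.22, adjusted p = 0.024). *Fxyd7*, a regulator of the sodium pump, stood at 249, 460.4 and 56.2 CPM (log2 fold change −2.68, adjusted p = 0.0001). Its sham counts rested on few barcodes, since 62 of 89 UMIs in sham 1 and 106 of 485 in sham 2 lay in 1 member. *Hras*, a small GTPase of growth factor signalling, stood at 313, 401 and 61.9 CPM (log2 fold change −2.53, adjusted p = 0.000226). *Cnih2*, a cornichon that accompanies AMPA receptors, stood at 774, 1039 and 174 CPM (log2 fold change −2.38, adjusted p = 0.000884). The DESeq2 adjusted p of *Mllt11* was 0.0365, and that of *Stmn2* was 0.0678.

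Others of this group were *Guk1*, a guanylate kinase, at 187, 344 and 45 CPM (log2 fold change −2.59) and *Syngr3*, a synaptic vesicle protein, at 139.7, 96.8 and 11.2 (log2 fold change −3.33). *Ttc9b* stood at 344, 328 and 67.5 CPM (log2 fold change −2.31) and *Rprml* at 355, 541 and 101 (log2 fold change −2.16). In sham 1, 79 of 123 *Ttc9b* UMIs lay in 1 member, against 26 of 127 for *Rprml*. *Hs3st4*, a heparan sulfate sulfotransferase, had 29 UMIs in sham 1, 55 in the other sham library and 0 in 2VO 1, and was at least 3.53-fold lower when 3 counts are taken as the floor of the 2VO library. *Bnip3*, a mitochondrial outer membrane protein of mitophagy, had 40 UMIs in 13 neuronal barcodes of sham 1, 112 in 31 of sham 2 and 0 in 2VO 1, which is at least 5.49-fold lower. It was at least 6.16-fold lower in lncRNA-rich barcodes, where it also fell by the test (adjusted p = 0.024).

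**Figure D4:**
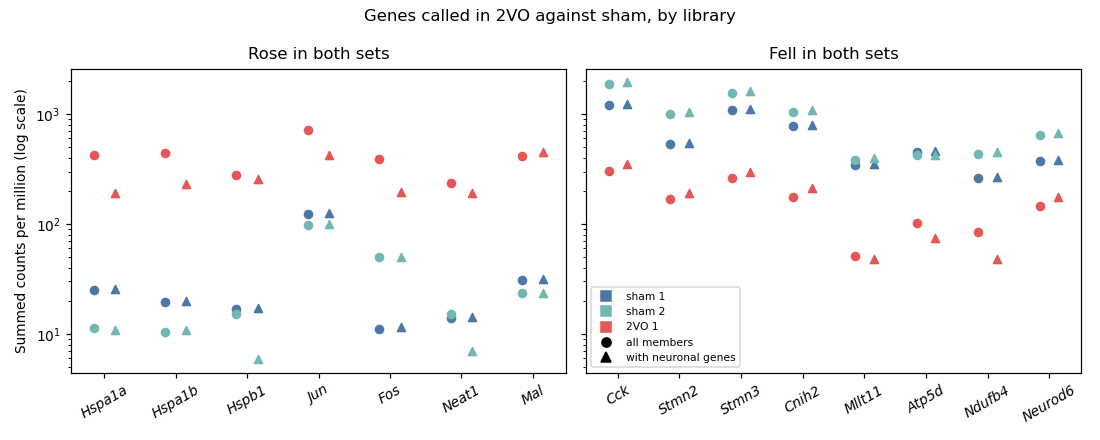
Points give summed CPM per library on a log scale, circles for all *Slc17a7*+ barcodes and triangles for neuronal barcodes, for 7 genes that rose (left) and 8 that fell (right) in both sets. *Hspb1* lies above 250 CPM in 2VO 1 and under 20 in both sham libraries in both sets, and *Cck* lies highest in sham 2 and lowest in 2VO 1. For *Mal* the difference was not called in clean neuronal barcodes.

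Nuclear genes of the respiratory chain, which carries electrons to oxygen and makes ATP, were lower in 2VO 1 when counts were summed. Of 61 tested, 20 fell in all members and 0 rose (median −1.35), 31 fell in neuronal barcodes (median −1.57) and 36 in clean ones (median −1.83). The ATP synthase subunit *Atp5d* stood at 449.9 in sham 1, 421 in sham 2 and 101 in 2VO 1 CPM (log2 fold change −2.10, SE 0.50, adjusted p = 0.0019). *Ndufb4*, of complex I, stood at 259.9, 431 and 84.4 CPM (log2 fold change −2.05, adjusted p = 0.00257), and *Cox7b*, of complex IV, at 408, 527 and 118 CPM (log2 fold change −1.99, adjusted p = 0.00326). The complex IV gene *Cox8a* stood at 1433, 2206 and 737 CPM and was not called (log2 fold change −1.31, adjusted p = 0.17). In lncRNA-rich neuronal barcodes *Atp5d* (log2 fold change −2.67, adjusted p = 0.0459) and *Ndufb4* (log2 fold change −3.17, adjusted p = 0.0486) fell, the other 59 were not called, and the list median was −1.72 with 60 of 61 genes under both sham libraries. Over all genes tested there, 40.3% lay under both.

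That difference depends on how barcodes are weighed. Summed over neuronal barcodes, the list made up 277, 311 and 120 UMIs per 10000, and as a mean over barcodes 259, 172 and 136. Its median was 216 in sham 1, 68.5 in sham 2 and 121 in 2VO 1, so that by this share a typical 2VO barcode lay between the sham mice. These are shares of all UMIs, and in sham 2 they are lowered by the ribosomal-RNA-associated transcripts and *Lars2*. Those had medians of 130, 2793 and 167 UMIs per 10000 in neuronal barcodes, and their part was not tested. The 10 deepest barcodes held 64.3%, 36.6% and 73.1% of the summed UMIs. By sums 58 of 61 genes lay under both sham libraries in neuronal barcodes, and by means 43 did. Of all genes tested in that set, 41.2% lay under both in summed CPM, and the share by means was not taken. In lncRNA-rich barcodes the sums were 269, 342 and 115 and the medians 194, 70.1 and 107. After thinning every member to 1000 UMIs, edgeR called 0 of 48 tested genes, with 0 at an unadjusted p under 0.05 and a median of −0.23, and DESeq2 called 0 in all members, with 36 at an unadjusted p under 0.05, and 17 in neuronal barcodes.

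The 13 genes of the mitochondrial genome did not follow the nuclear ones. None was called in all members, neuronal barcodes or clean ones by edgeR, with 0, 0 and 1 at an unadjusted p under 0.05 and medians of −0.04, −0.60 and −0.70. Their sums in neuronal barcodes were 163, 371 and 213 UMIs per 10000, with 2VO 1 between the sham libraries, while the means over barcodes were 281, 644 and 252. Of 81 tested cytosolic ribosomal protein genes edgeR and DESeq2 called 0 in all members, with 5 and 1 at an unadjusted p under 0.05 (edgeR median −0.43). By edgeR 1 fell in neuronal barcodes (median −0.78) and 4 in clean ones. By sums 79 of 84 lay under both sham libraries in neuronal barcodes, and by means 31 did. Over all genes tested there, 41.2% lay under both in summed CPM, and no such share was taken for means. After thinning every member to 1000 UMIs the median of the ribosomal list had the other sign, 0.48, with 2 of 77 genes higher. Of 21 proteasome and ubiquitin genes edgeR called 0 in all members, with 6 at an unadjusted p under 0.05 (median −0.74).

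Few genes of the synapse passed the test. Of 20 tested glutamate receptor genes *Gria4*, an AMPA receptor subunit, rose (14, 44.6 and 107 CPM; log2 fold change 1.66, adjusted p = 0.0383) and *Cnih2* fell, with a median of −0.02 in all members and 0.16 in neuronal barcodes. Of 27 postsynaptic density genes edgeR and DESeq2 called 0 in all members, with 3 at an unadjusted p under 0.05 by each (edgeR medians −0.28 and −0.08). Of 25 sodium, potassium and calcium channel genes both called 0, with 4 and 1 at an unadjusted p under 0.05 (edgeR medians −0.13 and 0.07). Of 24 vesicle and release genes 3 fell in all members, *Rab3a* and *Syngr3* among them (median −0.83) and 1 fell in neuronal barcodes (median −0.69). *Nrgn* stood at 3350.2 in sham 1, 6991 in sham 2 and 1389 in 2VO 1 CPM. Its difference was not called (log2 fold change −1.90, SE 0.75, adjusted p = 0.11). As a difference in CPM, though not as a ratio, the sham libraries lay further from each other than sham 1 lay from 2VO 1.

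*Atp1b1*, the beta subunit of the sodium pump, and the plasma membrane calcium pumps *Atp2b1* and *Atp2b2* are genes the study names for glutamatergic neurons. *Atp1b1* stood at 2571 in sham 1, 2314 in sham 2 and 1344 in 2VO 1 CPM (log2 fold change −0.86, adjusted p = 0.434). *Atp2b1* stood at 2962, 3247 and 1856 CPM (log2 fold change −0.74, adjusted p = 0.531) and *Atp2b2* at 637, 688 and 472 (log2 fold change −0.49, adjusted p = 0.571). None of the 3 was called in these barcodes, and of 11 pumps and exchangers edgeR and DESeq2 called 0, with 2 and 1 at an unadjusted p under 0.05 and edgeR medians of −0.70 in all members and −0.56 in neuronal ones. *Lars2*, the mitochondrial leucyl-tRNA synthetase, stood at 749, 6038 and 1636 CPM (log2 fold change −1.06, adjusted p = 0.363), with 2VO 1 between the sham libraries.

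Genes that mark the kind of neuron differed as well. Of 8 tested CA1 genes *Fibcd1*, *Pou3f1*, *Spink8* and *Wfs1* fell in all members (median −1.50), 3 fell in neuronal barcodes (median −1.38) and 0 in lncRNA-rich ones, where 4 had an unadjusted p under 0.05 (median −1.25). DESeq2 called 0 of the 8 in all members, with 5 at an unadjusted p under 0.05. *Spink8* stood at 156 in sham 1, 181 in sham 2 and 45 in 2VO 1 CPM (log2 fold change −1.91, SE 0.56, adjusted p = 0.0193). *Neurod6*, a transcription factor of pyramidal neurons, stood at 372, 644 and 146 CPM (log2 fold change −1.81, adjusted p = 0.00876). Of 10 granule cell genes edgeR called 0 in all members, with 3 at an unadjusted p under 0.05 (median 0.71), with *Prox1* at 134, 31.3 and 174 CPM (log2 fold change 1.26, adjusted p = 0.0722). In pyramidal-side members 195 of 6479 genes rose (3.01%) and 170 fell (2.62%), and in granule-side members 36 of 3404 rose (1.06%) and 9 fell (0.264%). In pyramidal-side neuronal barcodes alone 205 of 6284 rose (3.26%) and 197 fell (3.13%). There 0 of the 8 CA1 genes, which are among those that assign a barcode to this side, were called by edgeR, with 4 at an unadjusted p under 0.05 and a median of −0.92, and 32 respiratory chain genes fell (median −1.74). *Pcp4* at 1338, 169 and 219 CPM was called lower (log2 fold change −1.75, adjusted p = 0.0163), but its 2VO value lay between the sham values, and without sham 1 the sign turned (log2 fold change 0.30). In sham 1, 332 of its 479 UMIs lay in 1 member. The proportion of granule and pyramidal barcodes moved with these genes, and its part in them was not tested.

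Some nuclear long noncoding RNAs were higher in 2VO 1. *Neat1*, the scaffold of paraspeckles, stood at 14 in sham 1, 15.2 in sham 2 and 236 in 2VO 1 CPM (log2 fold change 3.97, SE 0.48, adjusted p = 1.09e-13), and it rose in neuronal barcodes (log2 fold change 4.34, adjusted p = 3.33e-10). Of its 28 UMIs in neuronal 2VO barcodes, 96.4% lay in 5 of 22, and in clean neuronal barcodes it had 4, 2 and 3 UMIs and was not tested. In lncRNA-rich ones, which this list chose, it stood at 17.1, 7.82 and 203 CPM. *Kcnq1ot1* stood at 341, 256 and 844 CPM (log2 fold change 1.51, adjusted p = 0.00799), and it stood at 410.0, 339 and 1000.1 in lncRNA-rich barcodes. *Malat1*, an RNA of nuclear speckles, was not called (log2 fold change 0.38, adjusted p = 0.897), nor was *Meg3* (log2 fold change 1.00, adjusted p = 0.419). Of 8 tested RNAs 3 rose and *Pantr1* fell in all members (median 1.09). The lower share of lncRNA-poor barcodes in 2VO 1 moves with these values, and its part was not tested.

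Genes of other brain cells rose as well. All 12 tested microglial genes rose in all members (median 4.74), as did 9 of 10 oligodendrocyte genes (median 3.50) and 5 of 7 endothelial genes (median 2.71). Of 3 tested choroid plexus genes, 2 rose in all members (median 2.66), 1 in neuronal barcodes and, by edgeR, 0 in clean ones, which these genes helped to choose, with 0 there at an unadjusted p under 0.05. The summed choroid plexus list made up 11.5, 7.35 and 67.0 UMIs per 10000 of all members and 11.3, 7.16 and 19.4 of neuronal ones. Among astrocyte genes edgeR called 0 of 9, with 2 at an unadjusted p under 0.05 (median −0.48). *C1qb*, a chain of the complement protein C1q made by microglia, stood at 11.2 in sham 1, 23.7 in sham 2 and 714 in 2VO 1 CPM (log2 fold change 5.16, SE 0.42, adjusted p = 2.93e-30). In neuronal barcodes it stood at 11.4, 18.8 and 122 CPM (log2 fold change 2.88, adjusted p = 0.00112). *C1qb* UMIs were in 40.9% of neuronal barcodes of 2VO 1 against 4.88% and 3.65% in the sham libraries. At 1000 UMIs per barcode the expected shares were 2.37%, 1.199% and 15.3% in neuronal barcodes, 2.31%, 1.60% and 31.7% in all members, and 0.815%, 0.375% and 14.9% in barcodes with oligodendrocyte genes, which should lack it. The share in neuronal 2VO barcodes was close to that background, and the share in all 2VO members was above it.

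Myelin transcripts were also concentrated in few barcodes. *Mal*, a membrane protein of myelin, stood at 30.7 in sham 1, 23.7 in sham 2 and 416 in 2VO 1 CPM (log2 fold change 3.98, adjusted p = 1.87e-17) and at 31.5, 23.8 and 455 in neuronal barcodes (log2 fold change 4.10, adjusted p = 3.46e-17), and it was not called in clean ones (log2 fold change 0.67, adjusted p = 0.767). *Trf*, the iron carrier transferrin, which oligodendrocytes make, had log2 fold changes of 3.93, 3.67 and 0.90 in the 3 sets. In neuronal 2VO barcodes 85.0% of the 635 oligodendrocyte UMIs lay in 5 of 22 barcodes, as did 79.3% of 92 microglial and 84.6% of 324 endothelial UMIs. For sham 1 and sham 2 these shares were 41.4% and 22.3% (oligodendrocyte), 100% and 82.2% (microglial) and 66.9% and 25.8% (endothelial). In clean neuronal barcodes 0 of 8 tested oligodendrocyte genes and 0 of 4 endothelial genes were called by edgeR, with 2 of each at an unadjusted p under 0.05 and medians of 0.64 and 1.69, but these genes were used to choose that set. The parts of free RNA and doublets in these transcripts were not tested.

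The interferon and antigen presentation list rose with them, 4 of 5 tested genes in all members (median 2.96) and 3 of 4 in neuronal barcodes. *H2-D1*, a class I molecule, had a log2 fold change of 2.68 in neuronal barcodes (adjusted p = 0.00121) and 1.58 in clean ones (adjusted p = 0.355). *Slc2a1*, the glucose transporter GLUT1 of endothelium and other cells, was the 1 of 21 glycolysis and glucose uptake genes that rose (11.2, 12.3 and 101 CPM; log2 fold change 3.06, adjusted p = 0.000829), and *Tpi1* was the 1 that fell. Of 20 antioxidant genes *Prdx5*, a peroxiredoxin, fell (620.3, 589.5 and 208 CPM; log2 fold change −1.54, adjusted p = 0.0331).

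**Figure D5:**
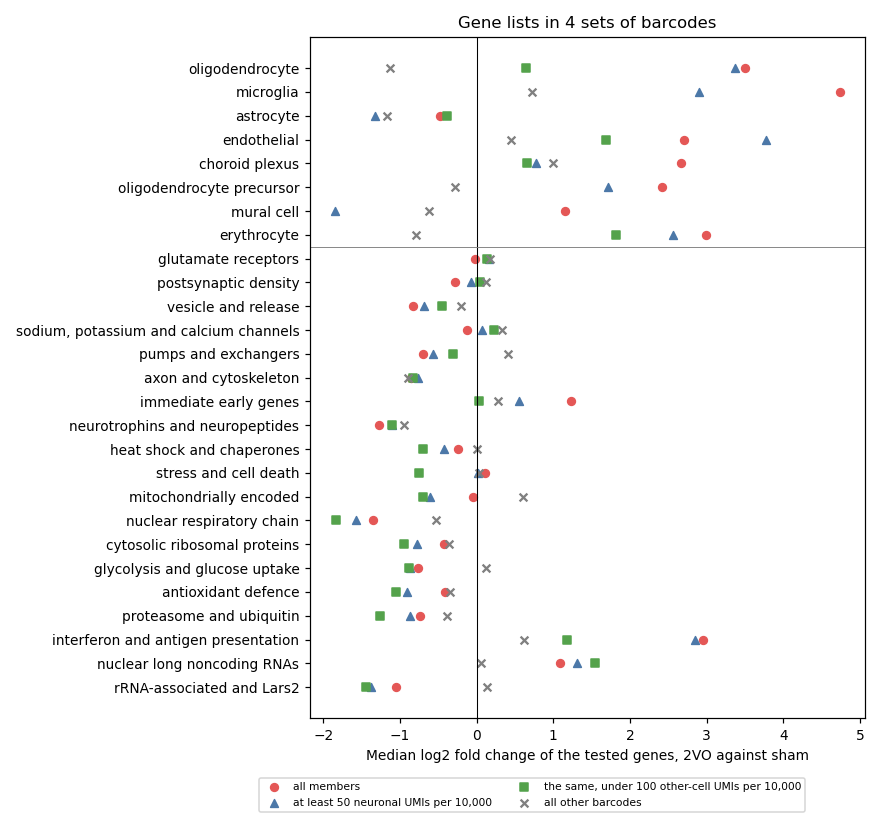
Each row is 1 gene list, and the x axis gives the median log2 fold change of its tested genes in 2VO 1 against the sham libraries. Points are all *Slc17a7*+ barcodes, neuronal barcodes, clean neuronal barcodes and all other kept barcodes, and the grey line separates 8 lists of other brain cells from 19 of function. Microglial, oligodendrocyte and endothelial lists lie far right in all members, at 4.74, 3.50 and 2.71, and the nuclear respiratory chain lies left in all 3 sets of members, at −1.35, −1.57 and −1.83.

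Whether a difference was particular to these neurons was tested against other barcodes of the same libraries. These fits had 1 residual degree of freedom and an infinite prior, so their p-values take little account of spread particular to a gene. Against 131 GABAergic barcodes (55, 41 and 35), which held *Gad1* or *Gad2* and little *Slc17a7*, the 2VO change was higher for 27 of 8730 genes (0.309%) and lower for 17 (0.195%). *Cck* was among the latter. In *Slc17a7*+ barcodes it stood at 1239.6, 1904 and 304 CPM, and in GABAergic ones, a class known to include cholecystokinin interneurons, at 134, 291 and 1626. It fell in the former and was higher in 2VO 1 than in both sham libraries in the latter, a difference in log2 change of −5.37 (SE 0.85, adjusted p = 2.17e-06). Between the neuronal barcodes of both kinds, where 6 of 8436 genes were higher (0.0711%) and 7 lower (0.083%), the difference for *Cck* was −5.67 (adjusted p = 7.99e-07). Both neuronal sets were chosen by the sum of neuronal genes, so the value for *Cck* there is not independent of that choice.

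*Hspb1* in GABAergic barcodes stood at 75.1, 54.7 and 46.7 CPM, a difference of 4.51 (adjusted p = 0.000364), and between neuronal barcodes 5.80 (adjusted p = 0.000129). *Fos* in GABAergic barcodes stood at 148, 821 and 308 CPM, a difference of 4.24 (adjusted p = 3.67e-05). The differences for *Hspa1a* (2.33, adjusted p = 0.204) and *Jun* (2.02, adjusted p = 0.381) did not pass. The 2VO values rest on 41 and 35 barcodes, and subtypes of interneurons were not matched between libraries. Of the GABAergic barcodes, 8 of 55, 6 of 41 and 18 of 35 held under 50 neuronal UMIs per 10000, and 10, 9 and 29 held at least 100 other-cell UMIs. Those with at least 50 neuronal UMIs numbered 47, 35 and 17.

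Against all other kept barcodes, the change was higher for 123 of 15798 genes (0.779%) and lower for 8 (0.0506%). *Hspa1b* and *Hspa1a* rose more in *Slc17a7*+ barcodes, with differences of 3.27 (adjusted p = 0.0212) and 3.32 (adjusted p = 0.0314). Restricted to neuronal barcodes, these were 2.26 (adjusted p = 0.538) and 2.18 (adjusted p = 0.676). *Hspb1* differed there by 3.92 (adjusted p = 0.0494), and 35 of 15757 genes were higher (0.222%) and 5 lower (0.0317%). None of the 61 nuclear respiratory chain genes passed edgeR's test of a difference from the others or from GABAergic barcodes, with 1 and 0 at an unadjusted p under 0.05. In the other barcodes alone 0 of 17094 genes were called by edgeR, with 1835 at an unadjusted p under 0.05, and the mix of their cell types differs between libraries. That fit had prior degrees of freedom of 3.19, against an infinite prior in all members. Its count of calls therefore cannot be set against theirs.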

How the data were processed

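Hippocampal single-cell RNA libraries (10x, 3′ end) of sham 1, sham 2 and 2VO 1 were used as deposited by the authors, as UMI counts per gene and barcode that are whole numbers and differ in total between libraries. Alignment was by the authors with Cell Ranger, and the submitters' processing notes name Seurat 3.2.2 and mm10. Other steps before deposit are not given in the sources used here. The files list 31053 genes, told apart by identifier. Results of 2VO 2 are not analysed here.

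Members were chosen by the limits given above. Members and gene lists were chosen with earlier results of these data known, and the neuronal, clean and lncRNA-rich subsets after the values had been seen. Counts were summed per library and tested with edgeR 4.0.16 in R 4.3.3 (TMM, filterByExpr, quasi-likelihood), which has 1 residual degree of freedom, and rule genes were left out of counts of calls. The difference from other barcodes was an interaction term with the library as covariate. DESeq2 1.42.0 was an alternative. Whether replicates of a group share a litter or day is not stated. Fold changes of genes with few counts depend on edgeR's prior count.

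Genes were named by a fixed rule: markers, the 15 called genes per direction with the smallest p among those with at least 50 counts whose 2VO value lay outside the sham values, the members of each list with the smallest p (3) or most counts (2 or 3), and genes the study names for these neurons. Which of them are printed was decided with the values in view, and *Bnip3* was added in that way. Scrublet (scanpy 1.11.5) marked 1 of 3912 barcodes of 2VO 1 at its automatic limit, so the lowest limit of the sham libraries (0.209) was used there after the data had been seen. It marked 1, 3 and 0 members, which were kept. Thinning for the fits was 1 draw of 1000 UMIs per barcode without replacement, shallower ones left out. Shares at 1000 UMIs are expected values over all such draws (hypergeometric), chosen after the data had been seen. The fits were tested on simulated data. Gene coordinates are of GRCm38.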

Additional observations from a re-analysis of the deposited data

Results flagged for a closer look

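The results here are named genes whose 2VO change differed between *Slc17a7*+ barcodes and other barcodes of the same libraries by edgeR's test of the interaction, each given as the difference of the 2 log2 changes. They rest on 1 2VO library, and no group had the 4 samples needed to look for a library far from the others.

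Against all other kept barcodes, microglial genes rose more in all *Slc17a7*+ barcodes. The differences were 5.74 for *Ccl4*, a chemokine, 5.49 for *C1qc*, 4.20 for *C1qa* and 4.04 for *C1qb*, the chains of C1q. They were 4.26 for *Trem2*, a lipid receptor, and 4.23 for *Ctss*, a lysosomal protease. The myelin gene *Mal* differed by 5.66 and the transferrin gene *Trf* by 4.29. The heat shock genes *Hspa1b* and *Hspa1a* differed by 3.27 and 3.32. In neuronal barcodes, among the genes tracked by name, those of *Mal* (5.76) and *Hspb1* (3.92) passed.

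Against GABAergic barcodes, *Cck* differed by −5.37 and the CA1 gene *Pou3f1* by −4.54. *Hspb1* differed by 4.51 and *Fos* by 4.24. The microglial genes differed by 4.94 (*Trem2*), 4.87 (*C1qc*), 3.88 (*C1qa*), 3.72 (*Ctss*) and 3.46 (*C1qb*). Between the neuronal barcodes of both kinds the differences were −5.67 for *Cck*, 5.80 for *Hspb1* and 4.62 for *Fos*. *Gm26870* differed by 12.7, a value that depends on the prior count because its GABAergic 2VO count was 0. Of its 146 UMIs in 7 neuronal 2VO barcodes, 55 lay in 1.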

How the results depend on the processing

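No paired analysis was possible because the groups compared share only replicate number 1. DESeq2 size factors and leaving out doublets or Cajal-Retzius members changed the direction or call of 0 of 65 genes tracked in all members. The counts of genes that rose and fell, 265 and 165, were 26 and 4 with DESeq2, 7 and 0 with at least 8 *Slc17a7* UMIs per 10000 (524 at an unadjusted p under 0.05), and 40 and 16 after thinning. The count that rose was 147 in neuronal barcodes, 89 in clean ones and 136 with at least 2 *Slc17a7* UMIs. It was 23, with 4 that fell, in lncRNA-rich ones, and 4, with 36 that fell, with DESeq2 in neuronal barcodes. Without a filter on low counts 71 granule-side genes rose, and with DESeq2 size factors the 2VO change was lower than in other barcodes for 14 genes. The cause of these shifts was not tested, except that the subsets hold fewer barcodes.

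The share of kept barcodes was 0.587% in sham 1, 2.69% in sham 2 and 0.409% in 2VO 1 with at least 8 *Slc17a7* UMIs per 10000. With at least 2 *Slc17a7* UMIs it was 3.37% in sham 2 and 0.537% in 2VO 1. It was 0.562% and 0.358% in 2VO 1 for neuronal and clean barcodes, and 0.431%, 1.60% and 0.460% in the 3 libraries for lncRNA-rich ones. With at least 200 detected genes 83, 385 and 71 barcodes were members. *Gm26870* turned to −0.60 (at least 8 *Slc17a7* UMIs per 10000) and −2.02 (clean), *Pcp4* to 0.056 (at least 8) and 0.30 (without sham 1, against −2.61 without sham 2), and *Prdx5* to 0.42 (thinned). Of the 65 genes, 39 lost their call in lncRNA-rich barcodes, 7 in neuronal ones, 13 in clean ones and 37 with DESeq2. Leaving out a sham library gives a fold with no test and no count of calls. Without sham 2, 18 of 65 fold changes moved by more than the spread of the sham libraries, and without sham 1, 4 did. 2VO 1 could not be left out.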
